A study of Rattus norvegicus with 6 samples.

Results

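Acmsd encodes aminocarboxymuconate semialdehyde decarboxylase, an enzyme of tryptophan breakdown. It was measured here by the 1 probe, of 40351 on the array, that carries its symbol in the study's list. The mRNA probes outside that list have no name here, so another Acmsd probe among them would not be recognised. Acmsd was chosen because its level differed between the kidneys compared here, so its levels are given as a description with no test. Left kidneys of male Sprague Dawley rats were taken at postnatal day 10, from 3 rats with low birth weight (LBW) and 3 controls of normal birth weight, and each rat had its own one-colour Agilent array. The dams of the LBW rats ate a low-protein diet in pregnancy and for the first 10 days of suckling, and the dams of the controls ate a normal protein diet in both periods. Low birth weight and the maternal diet before and after birth come together in each LBW rat and cannot be told apart. The sources used here do not give the litter of each rat, so the spread between arrays is that between rats which may share a dam.

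Tryptophan is broken down through kynurenine to aminocarboxymuconate semialdehyde, an unstable compound with alternative fates. Left alone it closes into quinolinate, from which cells make NAD, the cofactor that carries electrons in metabolism. Acmsd removes a carboxyl group from it first and so steers the carbon toward complete oxidation and away from NAD. The enzyme is known from kidney, where the proximal tubule expresses it, and from liver.

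Acmsd was lower in each LBW kidney than in any control kidney. On the log2 scale after quantile normalization, which gives each array the same distribution of intensities, the level was 9.50, 9.09 and 9.31 in control 1, 2 and 3. It was 7.49, 8.16 and 7.91 in LBW 1, 2 and 3. The group mean was 9.30 ± 0.21 (SD, n = 3) in controls and 7.85 ± 0.34 (SD, n = 3) in LBW. The log2 difference, LBW minus control, was -1.45 with a standard error of 0.23, a level 2.74-fold lower in LBW. The lowest control array lay 1.91-fold above the highest LBW array. Among all 33608 probes tested, 12.1% also had every LBW array below every control array, and nothing is read from that share, since the gene was chosen on this contrast. Whole kidney RNA was measured, so fewer cells that express Acmsd and less Acmsd RNA per cell cannot be told apart.

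**Figure D1:**
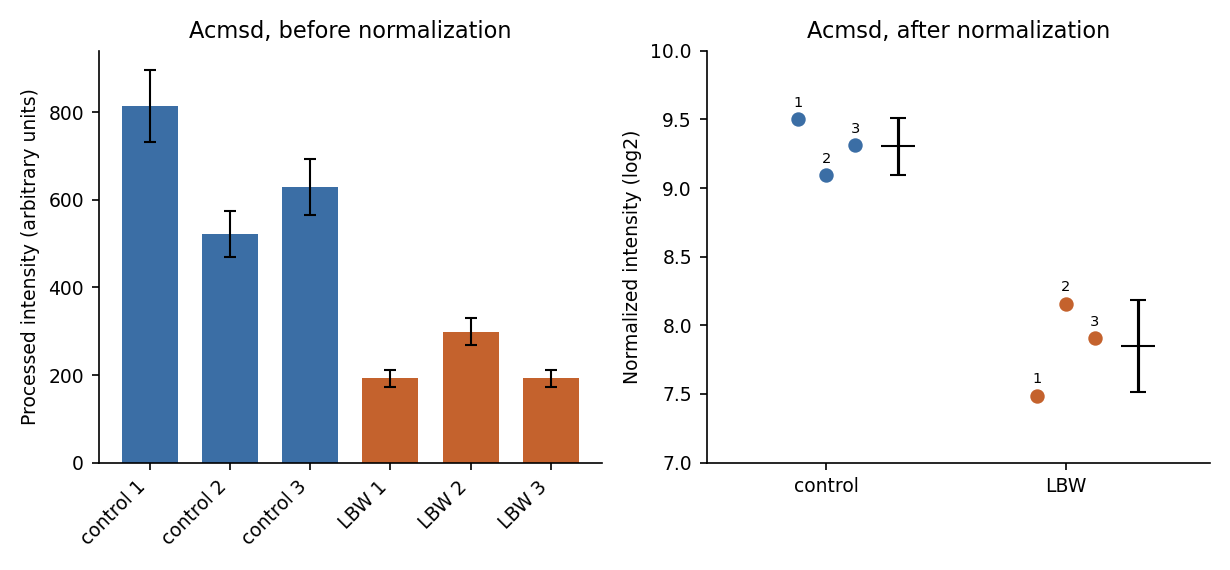
Acmsd on each array. The left panel shows processed intensity before normalization in arbitrary units, with bars of 1 error-model SD of the spot, and the right panel shows log2 normalized intensity of each numbered rat with the group mean ± SD (n = 3). The 3 LBW arrays lie between 7.49 and 8.16 and the 3 control arrays between 9.09 and 9.50.

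The difference was also present before normalization between arrays. The processed intensity, background-subtracted and detrended within each array by the scanner software, was 814, 523 and 629 in controls 1 to 3 and 193, 299 and 193 in LBW 1 to 3. The scanner software's error model gave each of these an error of about 10.0%. On this scale the log2 difference was -1.53, or 2.89-fold lower in LBW. LBW 1 and LBW 3 had the same intensity before normalization and lay 0.42 apart on the log2 scale after it, because the LBW 3 array was dimmer as a whole. Its median intensity over all spots was 69.0, against 90.9 on LBW 1 and between 81.3 and 94.4 on the others.

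The spot was clean on every array. It was found, was well above background and was neither saturated nor an outlier on all 6 arrays. Per the file headers, a spot well above background has a background-subtracted signal of more than 13 background SDs. The mean signal was 35.3, 24.6 and 29.1 times the background used on controls 1 to 3. On LBW 1 to 3 it was 9.33, 13.9 and 9.60 times, so the LBW values were measured levels and not bounds. The 94 tested spots within 5 rows and columns of the Acmsd spot had a median log2 difference of 0.03, with quartiles of -0.18 and 0.22. The lowest of them was -0.95, so none of these neighbours on the glass reached the difference of Acmsd.

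In order from high to low the arrays were control 1, control 3, control 2, LBW 2, LBW 3 and LBW 1. Control 1 and control 3 were 0.19 apart on the log2 scale, and control 3 and control 2 were 0.22 apart. The combined error of 2 spots was 0.20, so these neighbours differed by about the error of the spots. Control 2 and LBW 2, the neighbours at the border of the groups, were 0.94 apart, a gap that the choice of the gene fixed and from which nothing is read. LBW 2 and LBW 3 were 0.25 apart, or 1.22 combined errors, and LBW 3 and LBW 1 were 0.42 apart, or 2.05 errors. These errors are technical errors of single spots and do not hold the spread between rats. The pooled SD within groups was 0.28, against a median of 0.16 over all tested probes, and 82.1% of probes varied less than Acmsd between rats of a group.

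All arrays lay on 1 slide. The 3 controls and LBW 1 were in its first row, and LBW 2 and LBW 3 in row 2. Within row 1, and equally with the row as a block, the log2 difference was -1.82 (3.52-fold lower in LBW). That value rests on LBW 1 alone, the lowest array, because row 2 held no control. With normexp background correction and an offset of 50 added to each intensity, which raise dim spots, the difference was -1.22 (2.33-fold lower in LBW). With each array left out in turn it ran from -1.61 to -1.27, LBW 2 and LBW 1 being the arrays left out at these ends.

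**Figure D2:**
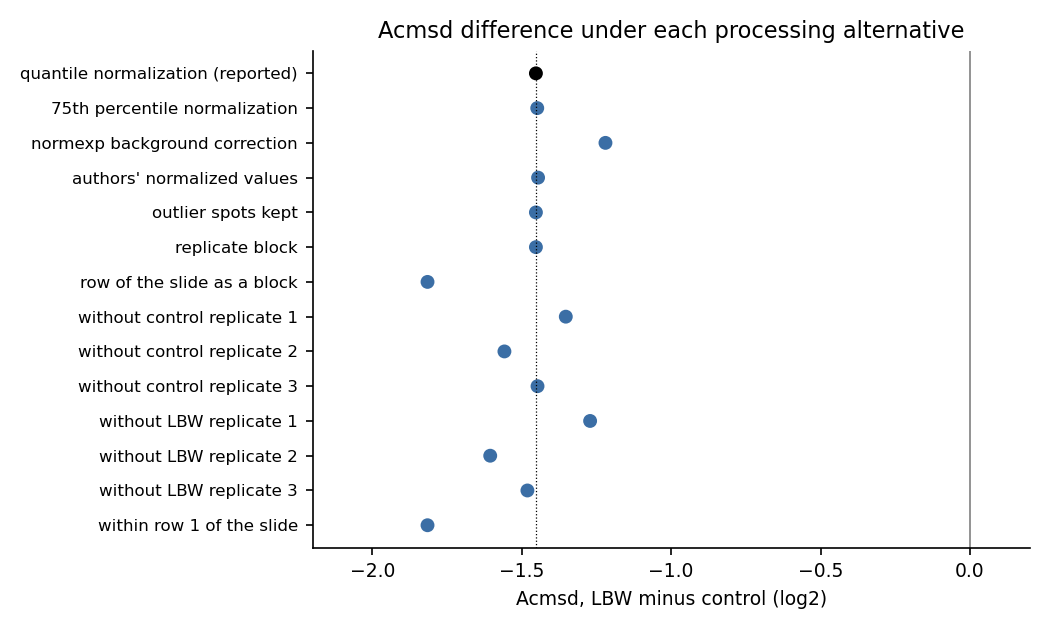
The log2 difference of Acmsd, LBW minus control, under each way of processing the arrays, with the reported value in black and on the dotted line. All points lie between -1.82 and -1.22, on the same side of 0. The points for the row as a block and for row 1 are the same value. Those for outlier spots kept and for the replicate block repeat the reported value.

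The probe is A_43_P13249, spotted once on each array, and no other probe carries the symbol in the study's list of named mRNAs. That list places it at chr13:40547366-40547425 on the minus strand. The list names no genome build, and the array design in the file headers is built on rn4. The sequence is printed because the level of Acmsd given here rests on these 60 bases, with capitals for the stop codon at its end.
Acmsd probe A_43_P13249: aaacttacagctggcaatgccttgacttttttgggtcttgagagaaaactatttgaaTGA
Read from its first base, the probe has 19 codons with no stop and then ends on TGA. The other reading frames meet a stop after 7 and after 12 codons. The probe holds 22 G or C bases (36.7%). None of the other 40350 probes shares a run of 14 bases with it on either strand. That search would not find a probe placed elsewhere in the Acmsd transcript. In the RefSeq annotation of GRCr8, Acmsd lies between Tmem163 and Ccnt2, and neither neighbour has a probe named by the study's lists, so their levels are not analysed here.

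Names of mRNA genes were taken only from the probes that the study listed as different between LBW and control, 108 of 129 listed mRNA probes. Of 52 other genes of tryptophan breakdown, NAD synthesis and use, and their transport and regulation, 0 were named. Of 31 proximal tubule markers, also 0 were named. The levels of these genes are not analysed here. Outside those lists, the study's list holds Nat8 and Cml3, related acetyltransferase genes, of which Nat8 is known from the proximal tubule. Their log2 differences were -1.13 and -2.77, and their r with Acmsd within groups, over the 6 arrays, was 0.52 and 0.40. Both were listed on this contrast, so they are no independent measure of the tubule.

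Among all 26060 mRNA probes tested, 41 had a lower log2 difference than Acmsd, a count that includes probes too dim in LBW for a firm level. The median difference over the 33608 tested probes was 0.00. The study's list holds 88 mRNA probes lower in LBW. It was drawn up on these arrays, so it is not independent evidence of a direction. Just above Acmsd in size of log2 difference stood Tfrc, the transferrin receptor (-1.58), Usp18, which removes the interferon-induced modifier ISG15 from proteins (-1.54), and Rbm20, a splicing regulator. Idh1, the cytosolic isocitrate dehydrogenase that makes NADPH (-1.49), and Dnai2, a chain of the dynein of motile cilia (-1.47), followed. Just below it stood S100a8, a calcium-binding protein of neutrophils, the protease gene Klk4 (-1.42), the lens crystallin gene Cryga (-1.41), Dmgdh (-1.40) and Agxt2 (-1.39). On the LBW arrays neither Rbm20 nor S100a8 was well above background, so their places beside Acmsd rest on LBW values that are not firm levels. For such a probe the control mean was set against LBW levels raised, where lower, to the dimmest level called well above background on that array. By that measure Rbm20 was 2.81-fold and S100a8 1.98-fold lower in LBW. Neither fold is a lower bound. Rbm20 on LBW 2 and LBW 3 and S100a8 on LBW 3 lay above that level and entered as measured. With normexp and its offset of 50, which draws dim levels together, their log2 differences were -0.28 and -0.13. Among the neighbours that were well above background on all 6 arrays, normexp also brought Usp18 to -0.77, Dnai2 to -0.41 and Klk4 to -0.83. Of the 10, normexp moved Cryga to -0.96 and left Tfrc, Idh1, Dmgdh and Agxt2 between -1.50 and -1.30. Places next to Acmsd are those of single probes. Another probe of Usp18 had a log2 difference of -2.75 and was well above background on 2 of 3 LBW arrays, and another of Tfrc had one of -1.67.

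Of these 10 neighbours, 3 passed limma's two-sided test at an adjusted p under 0.05, all lower in LBW, where 0.0952% of all tested probes did the same. They were Tfrc (adjusted p = 0.0150), Dmgdh (adjusted p = 0.0287) and Agxt2 (adjusted p = 0.0128). The call of Tfrc was kept without control 1 or control 2 and lost without control 3 or any LBW array (adjusted p from 0.0693 to 0.106), and with the row as a block (0.203). With a trended and robust variance limma also called Usp18 (adjusted p = 0.0321), Dnai2 (adjusted p = 0.0379) and Cryga (adjusted p = 0.0241). Cryga passed with normexp as well (adjusted p = 0.0475), and Usp18 without control 1 (adjusted p = 0.0368). With the row as a block none of the 10 passed. Nothing is read from the count of 3, because the list was drawn up on the same contrast.

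Dmgdh, Agxt2 and Bhmt are enzymes of amino acid and one-carbon breakdown that the study's list holds beside Acmsd. Bhmt passes a methyl group from betaine to homocysteine and leaves dimethylglycine, which Dmgdh then oxidizes in mitochondria. Dmgdh was at a log2 level of 10.20, 9.67 and 9.92 in controls 1 to 3 and 8.65, 8.53 and 8.41 in LBW 1 to 3, 2.64-fold lower in LBW. As with Acmsd, control 1 was the highest control and control 2 the lowest, but LBW 1 was the highest LBW array for Dmgdh and the lowest for Acmsd.

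Agxt2, a mitochondrial aminotransferase that uses glyoxylate and breaks down dimethylarginine, was at 12.15, 12.22 and 12.32 in controls 1 to 3. It was at 11.01, 10.80 and 10.72 in LBW 1 to 3, 2.61-fold lower in LBW. Its arrays were ordered differently from those of Acmsd within both groups. Bhmt was at 8.68, 8.47 and 9.17 in controls and 7.77, 7.79 and 7.68 in LBW, a log2 difference of -1.03 that did not pass the test (limma adjusted p = 0.0945). With a trended and robust variance it did (adjusted p = 0.0326), and over all alternatives the adjusted p ran from 0.0326 to 0.50. The groups did not overlap for any of the 3 genes, as for 12.1% of all tested probes in this direction, and nothing is read from this, since the list was drawn up on the same contrast. With the slide row entered as a block, the adjusted p of limma was 0.312 for Dmgdh and 0.169 for Agxt2, so neither call was kept. Over all alternatives it ran from 0.00444 to 0.312 for Dmgdh and from 0.00238 to 0.169 for Agxt2. The call of Dmgdh was lost with any of the 6 arrays left out (adjusted p from 0.0515 to 0.124). That of Agxt2 was kept without control 1 (adjusted p = 0.0365) and lost without any other array (up to 0.106).

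**Figure D3:**
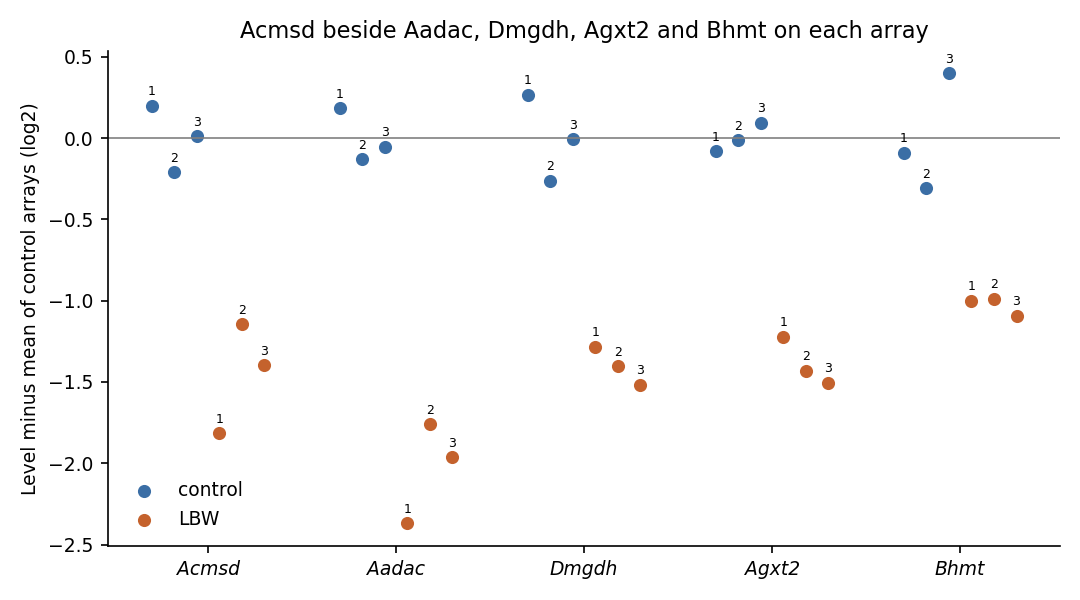
Level of Acmsd, Aadac, Dmgdh, Agxt2 and Bhmt on each array, as log2 intensity minus the mean of the 3 control arrays of the same probe, with the number of each rat. For Acmsd and Aadac the LBW arrays run from LBW 2 at the top to LBW 1 at the bottom, and for Dmgdh and Agxt2 LBW 1 is at the top. For Aadac no LBW array was well above background, so its LBW points are not firm levels.

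The probes that followed Acmsd most closely over the 6 arrays were looked up by Pearson's correlation of log2 levels, as a description with no p. All points share the contrast between the groups, which alone gives a high correlation to any probe with a large difference. Of 33536 other probes measured on all 6 arrays, 1117 (3.33%) had r of at least 0.9 and 743 had r of at most -0.9. With each value centred on its group mean, only the differences between rats of a group remain. Of the 33536 probes, 419 then had r of at least 0.9. With so few rats unrelated probes can also reach that r, so nothing is read from the count. Of these 419 probes, 97 were among the 1117.

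The 10 most similar probes had r between 0.993 and 0.9998 and were all mRNA probes lower in LBW. The log2 differences of the 9 that were well above background on all 6 arrays ran from -0.86 to -0.24. Every LBW array was below every control array for each of them (12.1% of all tested probes), and each put the 6 arrays in the same order as Acmsd. Their separation follows from the choice of probes most like a gene whose groups are separate. The shared order and a high correlation within groups also follow largely from that choice, so nothing is read from them. Their correlation within groups, over the same 6 arrays, was between 0.939 and 0.997. The closest was the unnamed probe A_43_P10785, at 11.18, 10.95 and 11.06 in controls 1 to 3 and 9.97, 10.37 and 10.25 in LBW 1 to 3. Its log2 difference was -0.86, smaller than that of Acmsd. Its spacing between rats followed that of Acmsd, for which it was chosen.

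Aadac was the 1 named gene among the 10, with r of 0.993 over the 6 arrays and 0.984 within groups. It encodes arylacetamide deacetylase, an esterase of the endoplasmic reticulum. Aadac was at 4.79, 4.48 and 4.55 in controls 1 to 3 and was not well above background in LBW on 3 of 3 arrays. The group means were 4.09-fold apart, lower in LBW. No LBW level lay below the dimmest level called well above background on its array, so none was raised and this fold is not a lower bound. It was picked for its likeness to Acmsd, so no test of its difference is given, and its r rests in part on dim LBW levels. With normexp its log2 difference was -0.37.

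The 5 most opposed probes had r between -0.998 and -0.995 and none had a symbol. They were higher in LBW by 0.24 to 1.51 on the log2 scale, with no overlap between the groups, where 10.5% of all tested probes had every LBW array above every control array. The largest difference among them was that of A_64_P110090, at 4.10, 4.38 and 4.11 in controls 1 to 3 and 6.11, 5.48 and 5.54 in LBW 1 to 3. With normexp its log2 difference was 0.57 in place of 1.51. LBW 1, the lowest rat for Acmsd, was the highest for it.

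Within the study's list, 37 of 128 other mRNA probes had r of at least 0.9 with Acmsd and 17 had r of at most -0.9. Of 39 listed lncRNA probes, 16 and 10 did so. After Aadac, the named mRNAs with the highest r were RGD1560137 (0.991), Clcn4, a chloride and proton exchanger (0.985), Sult1b1, a sulfotransferase (0.984), and Qrfpr, a neuropeptide receptor (0.976). Within groups their r was 0.926, 0.959, 0.843 and 0.917, which the choice by highest r favours. Sult1b1 has another probe that disagreed within groups. Both were dim in LBW, with 0 of 3 arrays well above background, and the other had r of 0.907 over the 6 arrays and -0.384 within groups. For Dmgdh r was 0.26 within groups, for Bhmt 0.17 and for Agxt2 -0.68, against 0.946, 0.902 and 0.915 over all 6 arrays. The r over all 6 arrays is set largely by the contrast on which these genes were listed.

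The listed transcript nearest to Acmsd on chromosome 13 was the lncRNA TCONS_00038464, 1.35 Mb away at chr13:41894971-41897435 on the plus strand. It was at 10.87, 10.43 and 10.37 in controls 1 to 3 and 9.55, 9.49 and 9.51 in LBW 1 to 3. Its log2 difference was -1.04 (limma adjusted p = 0.0710). It passed with normexp (0.0320) and with a trended and robust variance (0.0128), and over all alternatives the adjusted p ran from 0.0128 to 0.421. Its r with Acmsd was 0.939 over the 6 arrays and 0.317 within groups, and the LBW rats, which differed for Acmsd, were nearly level for this lncRNA.

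Of 55 markers of other cell types and of liver, 4 were named, all through the study's list. By limma, 0 of the 4 passed at an adjusted p under 0.05, which 0.143% of all tested probes did in either direction. All 4 had an unadjusted p under 0.05, against 15% of all tested probes, as a list drawn up on this contrast would. Alb, the albumin gene of liver, was well above background on all 3 LBW arrays and on no control array. All its control levels lay below the dimmest level called well above background and were raised to it. By that bound it was at least 2.94-fold higher in LBW, and with normexp its log2 difference was 0.19. It entered the test only through LBW, where it was high. Lyz2, a lysozyme gene of macrophages, had a log2 difference of -1.25 (adjusted p = 0.102). S100a8, whose fold is given above, entered the test only through the controls. The part of liver or leukocyte RNA in the level of Acmsd was not tested.

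The array also holds control spots for the rat housekeeping genes GAPDH and PGK1, 10 spots for each end of each transcript. All 4 were lower in LBW with no overlap of the groups, a pattern that 12.1% of all tested probes had after quantile normalization. The same held after scaling to the 75th percentile. After quantile normalization the 3′ spots of PGK1 were level at 10.09 on control 2 and LBW 3. On that scale the log2 difference was -0.34 for the 3′ spots of GAPDH and -0.32 for its 5′ spots, and -0.29 and -0.41 for those of PGK1. The 3′ level minus the 5′ level, which grows as RNA is degraded, was 1.55 ± 0.13 in controls and 1.52 ± 0.09 in LBW for GAPDH (SD, n = 3). For PGK1 it was 1.42 ± 0.13 in controls and 1.54 ± 0.04 in LBW, and the groups overlapped for both genes. The part of RNA quality in the level of Acmsd was not tested.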

How the data were processed

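Kidney RNA of 3 LBW and 3 control rats was amplified, labelled with Cy3 and hybridized to 1 array per rat. The authors deposited, from Feature Extraction 10.7.1.1, processed intensity values that were background-subtracted and detrended within each array, with raw intensity, error and flags. A log2 table deposited beside them, quantile normalized between arrays, served as an alternative. Each of its columns has a median of 6.88, matches the log2 intensities of its array (lowest correlation 0.9998) and is not centred by gene.

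Here the processed intensity of 61411 non-control spots was quantile normalized, given a floor of 1 and log2 transformed. Spots flagged as outliers were dropped, and replicate spots were averaged per probe. The 33608 probes well above background (a share of at least 0.5 of their spots) on all 3 arrays of at least 1 group, 26060 for mRNAs and 7548 for lncRNAs, entered the limma test (version 3.58.1, R 4.3.3, lmFit, eBayes, two-sided, Benjamini-Hochberg over all tested probes), and 48 (0.143%) passed at 0.05. The step was tested on simulated data. Python 3.11.15, numpy 2.4.6, scipy 1.17.1 and pandas 2.3.3 were used for the rest.

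Genes named are Acmsd, the 10 probes with the highest and the 5 with the lowest r with it, Dmgdh, Agxt2, Bhmt, the 5 listed probes on each side of Acmsd in difference, and the most abundant gene of each marker list. The listed genes with the highest r, Nat8, Cml3, S100a8 as a marker, TCONS_00038464 and the control spots were named after their values were seen. The values of 1 marker are not reported here. The gene and the lists were chosen with earlier results of these data known. With 3 arrays per group, their number limits the precision.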

Additional observations from a re-analysis of the deposited data

How the results depend on the processing

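Acmsd was lower in LBW under each alternative. With its groups separate, leaving out an array could not change that direction, so nothing is read from it. Its log2 difference was -1.82 within row 1 of the slide and with the row as a block, and ran from -1.61 to -1.27 with each array left out. The number of probes called by limma between LBW and control, 48 as reported, was 99 with normexp, 182 with a trended and robust variance, 3 with no filter on dim probes, 18 with a filter of 1 array above background and 7 with the row as a block. It ran from 3 to 29 with each array left out, below 48 for each of the 6. Those fits also had fewer arrays, so the part of any single array cannot be told apart. The methods' t-test called 2 after adjustment and 169 at the methods' own threshold of fold change and unadjusted p.

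Replicate numbers did not pair the samples, since deviations from the group means of same-numbered rats correlated at 0.03, 0.06 and -0.01 over 33537 probes. With replicate number as a block the Acmsd difference was -1.45, and limma called 0 probes, with 4839 at an unadjusted p under 0.05. Dmgdh and Agxt2 both had an adjusted p of 0.0833.

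Of the 4 named markers of other cell types, 1 (Lyz2) was called with a trended and robust variance and 0 under the others. Probes with r of at least 0.9 with Acmsd, 1117 as reported, were 419 with centred values. They were 1532 to 1936 with each array left out, where fewer arrays make a high r easier to reach.

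Probes picked for their r with Acmsd were left out of the tally of calls. Of 252 values of 15 other probes under the alternatives, 215 kept their side of the threshold, 28 lost a call and 9 gained one, and the direction did not change. The 75th percentile for the control spots was chosen after seeing the data. Alternatives for the tryptophan and proximal tubule lists were not run, as none of their genes was named. The causes were not tested.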
